A study of Mus musculus with 48 samples.

Results

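The comparison set Ba/F3 cells carrying the Rpl10 point mutation R98S against wild-type (WT) Ba/F3 cells. It uses 12 of the 48 libraries of the series, chosen by genotype label: 3 RNA-seq and 3 ribosome footprint libraries of the R98S clones A29, A30 and A34, and the same number from WT clones 1, 2 and 3. Ba/F3 is usually described as a mouse pro-B cell line, and its growth depends on interleukin 3. The R98S clones were made by CRISPR-Cas9 editing, their genotype is given as Rpl10 R98S/R98S, and the culture medium of both groups held interleukin 3 at 1 ng/ml and 10% serum. Cycloheximide (0.1 mg/ml), which halts elongating ribosomes, was added 1 min ahead of the harvest. A single lysate of a clone gave both a poly(A)-selected RNA library and a library of ribosome-protected fragments of 28 to 30 nt. The other libraries come from 18 clones of 6 further genotypes, edited in the same cell line: Rpl5+/-, Rpl11+/-, Rpl22+/-, Rpl22-/-, Rps15 P131S/P131S and Rps15 H137Y/H137Y. They entered the fits through the shared spread, and the first 4 of those genotypes served as a further reference that uses no WT library. Of 55487 genes in the table, 12814 had enough counts to be tested in RNA, 16217 in footprints and 12074 in both.

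Rpl10, also called uL16, is a protein of the large (60S) ribosomal subunit that reaches the pre-60S particle late, in the cytoplasm. Its loop near the peptidyl transferase centre takes part in the last maturation steps, when the export adaptor Nmd3 and the anti-association factor Eif6 are released. The R98S change is known as a recurrent mutation of human T-cell acute lymphoblastic leukaemia. Footprints count ribosomes on an mRNA, RNA reads count the mRNA itself, and the ratio of the changes in both, called translational efficiency here, asks whether ribosome load changed beyond the mRNA.

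Library totals were 15128729 to 38258559 estimated counts in R98S RNA, 25317713 to 27470910 in WT RNA, 49326207 to 54130337 in R98S footprints and 46806204 to 71443928 in WT footprints. Levels are CPM, counts relative to the scaled library size and so comparable between libraries, and changes are log2 values (R98S minus WT) with the standard error (SE) from edgeR's quasi-likelihood fit. A gene is called when its p, adjusted by the Benjamini-Hochberg method over all genes tested at that level, is under 0.05. Of 13 B-lineage markers, 6 were at 0 in all 6 RNA libraries and 3 were tested, with 0 called higher and 1 lower. Beside this and the marker lists below, the shares called over all genes were 12.9% in RNA and 1.62% in footprints. Cd79b RNA was at 6.10 to 7.89 CPM in R98S and 5.92 to 9.91 in WT, and Ptprc, the leukocyte antigen CD45, at 167 to 188 and 230 to 258 (change -0.45, edgeR adjusted p 0.0141, called in 4 of 6 fits without 1 clone). Ighm, the heavy chain of immunoglobulin M, was at 0.10 to 0.36 CPM in R98S and 0.07 to 0.11 in WT (change 1.21, edgeR adjusted p 0.45). Summed RNA of 12 mast cell and basophil genes was 448.5 to 464.7 CPM in R98S and 441.8 to 474.9 in WT. None of the 4 tested was called. For 10 erythroid and megakaryocyte genes the sum was 295.9 to 384.6 CPM in R98S and 283.2 to 335.4 in WT. Of the 7 tested, 0 were called higher and 1 lower. Summed RNA of 12 neutrophil and monocyte granule genes was 29.1 to 31.8 CPM in R98S and 46.2 to 205 in WT, highest in WT clone 2, with 0 of the 10 tested members called (edgeR adjusted p 0.091 for Prtn3). Of these 10, 0 had a positive RNA change, with a median of -2.49 (range -3.65 to -0.84). In footprints 0 of 11 tested had a positive change (median -3.05), and 0 were called. Elane, another member of the list, was at 0 in all 3 WT and at 0 to 0.03 CPM in the R98S RNA libraries. In such bulk libraries, fewer cells of a type and less RNA per cell cannot be told apart, and the part of such cells in the results was not tested. Without WT clone 2, 508 genes were called higher and 457 lower in RNA and 40 higher and 47 lower in footprints.

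Rpl10 itself lies on chromosome X (GRCm38, chrX:74270816-74273135). Its RNA was at 1800, 1885 and 1765 CPM in clones A29, A30 and A34 and at 1884, 1960 and 1982 CPM in WT clones 1, 2 and 3. The groups overlapped only by A30 and WT clone 1, and the change of -0.10 (SE 0.05, edgeR adjusted p 0.248) was not called. Gene counts do not show the edited base, so they do not check the genotype. The other 6 genotypes all had more Rpl10 RNA, with 2045 to 2575 CPM. Footprints of Rpl10 were nearly all listed under a processed copy, Rpl10-ps3, at 1572, 1255 and 1393 CPM in R98S and 1090, 1267 and 1123 in WT, against 1.78 to 5.57 CPM under Rpl10. Short footprints of near-identical copies cannot be told apart, and with the copies added to their parent gene Rpl10 changed by 0.28 in footprints (SE 0.10, edgeR adjusted p 0.183) and by 0.38 in translational efficiency (SE 0.11, edgeR adjusted p 0.153). Of the 20 genes tested nearest to Rpl10, 10 on each side, 1 was called in RNA and 0 of 19 in footprints. Over all genes 12.9% were called in RNA and 1.62% in footprints. The called neighbour was Taz, which encodes the cardiolipin remodelling enzyme tafazzin, with 20.8 to 21.0 CPM in R98S and 25.6 to 26.5 in WT (change -0.33, SE 0.06, edgeR adjusted p 0.00121). No chromosome moved as a block: median RNA changes lay between -0.045 on chromosome 6 and 0.03 on chromosome 19, and between -0.091 and -0.017 with library totals in place of scaling factors.

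In R98S the RNA of many genes changed by a small amount, and fewer genes were called in footprints and in translational efficiency. In RNA, 1647 of 12814 genes were called (12.9%), 874 higher (6.82%) and 773 lower (6.03%), with a median size of 0.40 among those called, and of these 95 were higher and 64 lower by at least 2-fold. In footprints, 263 of 16217 were called (1.62%), 132 higher (0.814%) and the rest lower (0.808%), and of these 28 were higher and 47 lower by at least 2-fold. In translational efficiency, 37 of 12074 were called (0.306%), 9 higher (0.0745%) and 28 lower (0.232%). A fit with a replicate block, in which RNA and footprints of 1 lysate are compared within the clone, called 93 genes, 29 higher and 64 lower, and 35 of the 37 were among them. With library totals in place of scaling factors the split was 645 higher and 1188 lower in RNA and 118 higher and 233 lower in footprints, and the median change over all genes was -0.05 in RNA and -0.06 in footprints, against -0.004 and -0.003 with scaling. Leaving out any 1 of the 6 clones lowered the total called at each level: 791 (without WT clone 3) to 1087 genes (without A34) in RNA, 50 (without WT clone 1) to 128 (without WT clone 3) in footprints and 16 (without WT clone 3) to 34 (without A29) in translational efficiency.

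Most genes called at both levels moved the same way. Of 12074 genes tested at both levels, 124 were called at both, which is 7.67% of the RNA calls and 48.6% of the footprint calls, and 119 of them moved the same way. Groups that do not overlap were common even without a call: in 46.3% of genes in RNA and 24.1% in footprints, all 3 R98S clones lay outside the range of the 3 WT clones. All 3 R98S clones lay outside the range of the 21 other libraries for 490 genes in RNA (3.82%), 244 in footprints (1.5%) and 129 in translational efficiency (1.07%). Among the called genes these were 158 higher and 111 lower in RNA, 37 and 43 in footprints and 8 and 12 in translational efficiency.

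**Figure D1:**
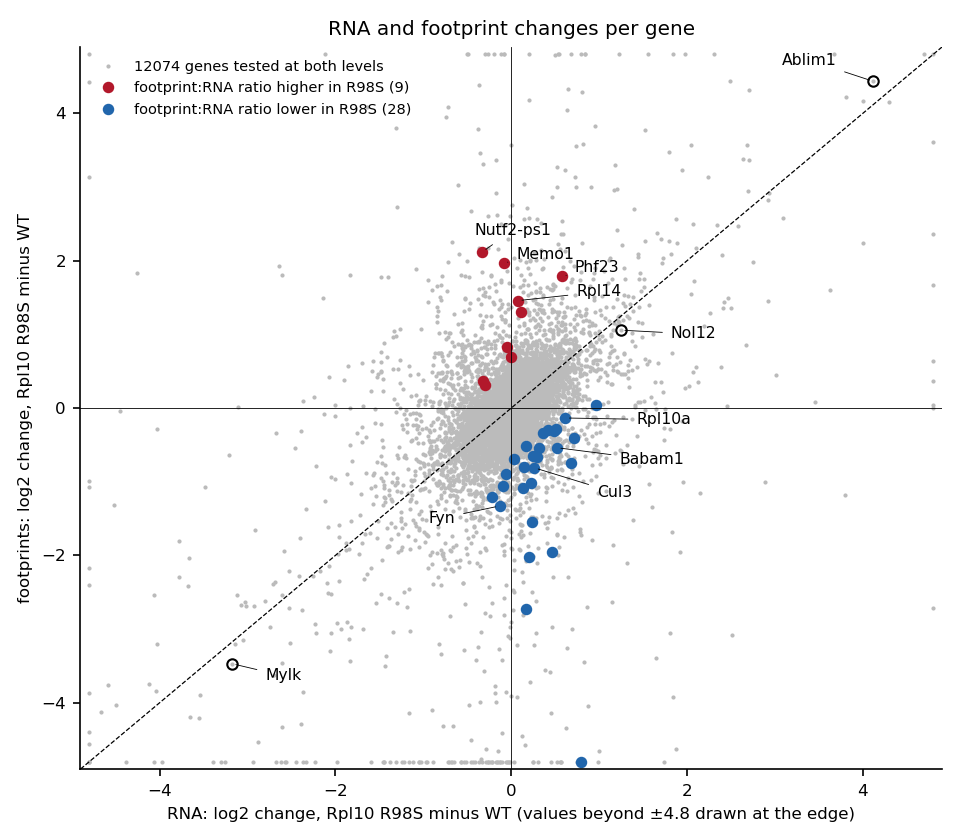
Log2 change of RNA (x axis) against log2 change of footprints (y axis), R98S minus WT, for the 12074 genes tested at both levels; values beyond 4.8 are drawn at the edge. Red points are the 9 genes whose translational efficiency was called higher and blue points the 28 called lower, and open circles mark 3 genes called in RNA and footprints alike; most blue points lie right of 0 in RNA and below 0 in footprints.

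Memo1 had the lowest p in translational efficiency. Memo1, whose product takes part in ErbB2-driven cell motility, lies at chr17:74186764-74295682 (GRCm38). Its RNA was at 81.9, 79.3 and 78.7 CPM in the R98S clones A29, A30 and A34 and at 83.6, 91.6 and 79.5 in WT clones 1, 2 and 3, so that the groups overlapped (change -0.09, SE 0.06, edgeR adjusted p 0.406). Its footprints were at 299.9, 319 and 334 CPM in the same R98S clones and at 77.9, 81.8 and 84.0 in WT. The footprint groups were far apart (change 1.97, SE 0.13, edgeR adjusted p 1.47e-08). Translational efficiency rose by 2.06 (SE 0.14, edgeR adjusted p 3.85e-13). None of the other 18 footprint libraries reached the R98S level, since they lay between 66.5 and 144.5 CPM, highest in Rps15 P131S. Against the mean of the 4 other large-subunit genotypes the footprint change was 1.96 (SE 0.09, edgeR adjusted p 1.08e-11).

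Phf23 and Nutf2 also had more footprints for their RNA. Phf23, a PHD finger protein gene at chr11:69995766-70000011, had 61.5, 63.2 and 59.1 CPM of RNA in R98S and 43.1, 39.8 and 40.3 in WT. Its footprints were at 99.9, 92.9 and 92.3 CPM against 26.0, 26.9 and 29.7. Both levels were separate from WT, and the footprints rose further (1.79, SE 0.13) than the RNA (0.58, SE 0.08), which gave a rise of 1.21 in translational efficiency (SE 0.15, edgeR adjusted p 6.84e-06). The other 18 libraries held 25.0 to 45.1 CPM of Phf23 footprints. Nutf2, which encodes the importer of Ran into the nucleus, had its footprints listed under the copy Nutf2-ps1, at 209, 282 and 280.4 CPM in R98S and 66.9, 42.0 and 68.4 in WT. With the copies added to Nutf2 the RNA was 188 to 197 CPM in R98S and 182 to 191 in WT, the footprints 209 to 283 and 49.4 to 72.0, and the change in translational efficiency 1.97 (SE 0.23, edgeR adjusted p 7.94e-07). Nutf2-ps1 falls outside the naming rule and was chosen after its values were seen.

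The other genes with higher translational efficiency changed less. Tmed10, a cargo receptor of the early secretory pathway, had footprints of 172 CPM on average in R98S and 97.4 in WT at near-equal RNA (256 and 264), a rise of 0.87 (SE 0.16, edgeR adjusted p 0.00357). Cisd1, the iron-sulphur protein mitoNEET of the outer mitochondrial membrane, rose by 0.70 (SE 0.14, edgeR adjusted p 0.00758), and its RNA means were 56.9 and 56.9 CPM. BC005537 rose by 1.19 (SE 0.23, edgeR adjusted p 0.00494). Ppp2r2a, a regulatory subunit of protein phosphatase 2A, and Odf2, a centriole appendage protein, were called with rises of 0.62 and 0.69, both with lower RNA in R98S (-0.30 and -0.32). Their log2 ratios of footprints to RNA were 0.77 to 0.895 and -0.193 to 0.052 in R98S. Rps15 P131S came close for Ppp2r2a (0.591 to 0.749) and lay within the R98S range for Odf2 (-0.188 to -0.075). For Odf2 Rps15 H137Y had -0.512 to 0.042. WT had 0.087 to 0.444 for Ppp2r2a and -0.875 to -0.675 for Odf2. Calls for 4 of these genes were not made in every fit without 1 clone: Cisd1 and BC005537 in 3 of 6, Ppp2r2a in 2 of 6 and Odf2 in 0 of 6. Rpl14 was called with 1.38 (SE 0.30, edgeR adjusted p 0.0179), but its footprints were split with Rpl14-ps1. With the copies added, Rpl14 footprints were at 1179 to 1617 CPM in R98S and 852 to 1320 in WT, and the change was 0.29 (edgeR adjusted p 0.949).

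Most genes with lower translational efficiency had more RNA, fewer footprints or both. Of the 28, 15 had RNA called higher and 0 called lower, 17 had footprints called lower and 0 called higher, and 1 was called at neither level. Babam1, a subunit of the BRCA1-A complex, had RNA means of 127 CPM in R98S and 89.0 in WT but footprint means of 46.1 and 67.0, a change in translational efficiency of -1.06 (SE 0.14, edgeR adjusted p 1.57e-05). Cul3, the scaffold of a large family of ubiquitin ligases, had footprints of 54.1, 53.4 and 53.7 CPM in R98S and 98.6, 93.8 and 90.6 in WT while its RNA means were 164 and 136.6. The Cul3 groups were well apart at the footprint level (efficiency change -1.07, SE 0.15, edgeR adjusted p 2.31e-05). In Rps15 P131S the log2 ratio of footprints to RNA of Cul3 was -1.548 to -1.40. It was -1.636 to -1.554 in R98S, -0.56 to -0.49 in WT and -1.01 to -0.45 in Rpl5+/-. Rps15 H137Y had -1.62 to -1.12, Rpl11+/- -0.95 to -0.79, Rpl22+/- -0.60 to -0.24 and Rpl22-/- -0.74 to -0.38. Vps41, a tethering factor of late endosomes, changed by -0.90 (SE 0.15, edgeR adjusted p 0.00138), with higher RNA and lower footprints in R98S than in WT.

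Fyn, a Src-family kinase, was not called in RNA (45.9 and 50.4 CPM on average, edgeR adjusted p 0.444) and had footprints of 9.14, 8.11 and 6.88 CPM in R98S against 21.2, 19.7 and 19.8 in WT. The highest R98S clone thus held less than the lowest WT clone, with a change in translational efficiency of -1.20 (SE 0.22, edgeR adjusted p 0.00357). The other 18 libraries held 5.93 to 21.25 CPM of Fyn footprints. Their log2 ratio of footprints to RNA was -2.301 to -1.34, against -2.719 to -2.287 in R98S and -1.434 to -1.179 in WT. Slf2, which recruits the SMC5/6 complex to DNA lesions, changed by -0.83, and Xpo6, the nuclear exporter of actin, by -0.72, both with RNA that was not called. Both were as low in Rps15 P131S. There the log2 ratio of footprints to RNA was -2.10 to -1.72 for Slf2 and -2.74 to -2.51 for Xpo6. In R98S it was -1.83 to -1.60 and -2.40 to -2.07, and in WT -0.99 to -0.88 and -1.64 to -1.46. Rpl5+/- lay near WT, at -0.99 to -0.59 and -1.63 to -1.47. For Xpo6 the other genotypes were below WT. Rpl11+/- had -2.08 to -1.84, Rpl22+/- -2.07 to -1.84, Rpl22-/- -2.08 to -1.87 and Rps15 H137Y -2.70 to -2.14. For Slf2 Rpl22-/- (-1.38 to -1.17) and Rps15 H137Y (-1.59 to -1.37) were below WT. Rpl11+/- (-1.025 to -0.91) and Rpl22+/- (-1.43 to -0.85) overlapped WT for Slf2. Ifnar1, a chain of the type I interferon receptor, changed by -1.21 (SE 0.22), from footprint means of 12.6 to 5.98 CPM. Dnajc24 and Cacul1 changed by -0.92 and -0.70. Dnajc24 and Ifnar1 were called in 5 of 6 fits without 1 clone, Cacul1 in 4 and Xpo6 in 3, and Babam1, Cul3, Vps41, Slf2 and Fyn in all 6. Fth1, the ferritin heavy chain whose mRNA carries an iron-responsive element, lies outside the naming rule and was named after its values were seen: RNA means were 1778 and 1429 CPM, footprint means 303 and 442, and the efficiency change -0.86 (SE 0.18, edgeR adjusted p 0.0109, called in 3 of 6 fits without 1 clone). The RNA groups of Fth1 overlapped (1561 to 1949 CPM against 1254 to 1588).

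**Figure D2:**
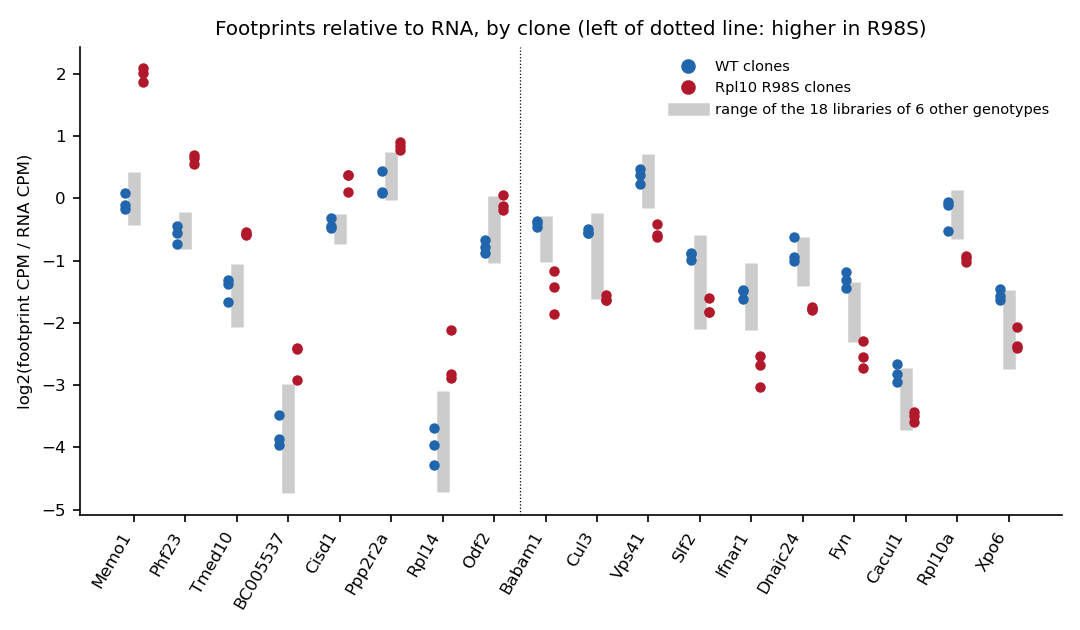
Log2 ratio of footprint CPM to RNA CPM (y axis) for the 18 genes named by rule, 8 higher and 10 lower in R98S; blue points are WT clones, red points R98S clones and grey bars the range of the 18 libraries of the 6 other genotypes. No gene shows overlap of the 3 red and 3 blue points; for Memo1 the red points (1.87 to 2.09) lie far above the grey bar (-0.43 to 0.42), while for Cul3 they reach its lower end (-1.62).

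Among genes with more footprints, Ebna1bp2 had a large rise. Ebna1bp2, a pre-60S assembly factor, had footprints of 383, 311 and 331 CPM in A29, A30 and A34 against 136, 148 and 111 in WT, and the other 18 libraries held 103 to 215. Its RNA rose by 0.72 (SE 0.12, edgeR adjusted p 0.000585) and its footprints by 1.37 (SE 0.14, edgeR adjusted p 2.80e-05), while the efficiency change of 0.65 was not called (edgeR adjusted p 0.137) but was called with the clone as a replicate block (0.66, edgeR adjusted p 0.0197). Polr1a, the largest subunit of RNA polymerase I, rose by 0.88 with 103 to 130 CPM in R98S and 62.3 to 67.1 in WT. Gpatch4, a nucleolar G-patch protein, rose by 1.42 with a wide spread (27.0 to 61.2 CPM against 13.5 to 18.4), and its efficiency change of 1.11 was called with the replicate block (edgeR adjusted p 0.0378) and not without it (0.0762). Psmg1, a chaperone of proteasome assembly, rose by 0.86 (SE 0.14) from 51.0 to 56.0 CPM in WT to 89.7 to 101 in R98S. Bzw1, a regulator of start codon selection that resembles eIF5, rose by 1.08, Dusp2, a phosphatase of MAP kinases, by 1.53, Zfp207, a spindle assembly factor, by 0.85, Trim24, a chromatin reader, by 0.93 and Abhd5, a lipolysis coactivator, by 0.93. The comparison with the 4 large-subunit genotypes gave 1.38 for Ebna1bp2, 0.73 for Psmg1, 0.81 for Zfp207 and 1.02 for Trim24, all called, but -0.56 for Dusp2 (edgeR adjusted p 0.0819), whose footprints were higher than in WT in all 6 other genotypes.

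Among the genes named by rule, footprints fell most for Mylk, the myosin light chain kinase, with 0.93, 0.50 and 1.46 CPM in R98S and 15.0, 7.86 and 9.10 in WT (change -3.47, SE 0.57, edgeR adjusted p 0.00363). Klf10, a TGF-beta-inducible repressor of transcription, had 11.9, 13.1 and 10.9 CPM against 30.8, 26.2 and 31.3 (-1.302, SE 0.22), and the difference was larger against the 4 large-subunit genotypes (-1.91, edgeR adjusted p 1.02e-05). Pspc1, a paraspeckle protein, changed by -1.13 (49.6 to 53.4 CPM against 97.5 to 126), Ivns1abp, an influenza NS1A-binding Kelch protein, by -1.11 and Bmp2k, a clathrin-associated kinase, by -1.21. Prkar2b, a regulatory subunit of protein kinase A, Sipa1l1, a Rap GTPase activator, and Crcp, a subunit of RNA polymerase III, changed by -0.77, -0.75 and -0.73. Gimap9, a GTPase of immune cells, changed by -0.79 against WT and was not called against the 4 large-subunit genotypes (-0.27, edgeR adjusted p 0.174). The efficiency changes of Ivns1abp (-0.82), Prkar2b (-0.50) and Sipa1l1 (-0.55) were called with the replicate block (edgeR adjusted p 0.00852, 0.029 and 0.0472) and not without it (0.0659, 0.297 and 0.16).

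In RNA, Nol12, Cxxc1 and Akr1c12 were higher in all 3 R98S clones than in every other library. Nol12, a nucleolar protein needed for ribosomal RNA processing, was at 94.9, 96.8 and 92.4 CPM in R98S and 42.7, 40.0 and 37.2 in WT. All 18 other libraries held 36.2 to 50.4 CPM of Nol12, so the R98S clones lay above them all (change 1.25, SE 0.08, edgeR adjusted p 1.11e-08; against the 4 large-subunit genotypes 1.12, edgeR adjusted p 1.57e-10). Its footprints rose by 1.06 (edgeR adjusted p 0.0091, called in 5 of 6 fits without 1 clone). Cxxc1, the CpG-binding subunit of SETD1 histone methyltransferases, was at 97.4 to 104 CPM in R98S, 43.7 to 47.5 in WT and 42.6 to 82.1 elsewhere (1.15, SE 0.14). Akr1c12, an aldo-keto reductase, was at 407, 386 and 197 CPM in A29, A30 and A34 and at 98.1, 156.5 and 153 in WT (1.28, SE 0.28), and the other 18 libraries ended at 174.

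Ablim1, an actin-binding LIM protein, had the widest rise of the genes named, from 5.49, 12.9 and 5.20 CPM in WT to 151, 156 and 104 in R98S (4.12, SE 0.76, edgeR adjusted p 0.00236). All R98S clones were above all WT clones, but the 6 other genotypes spanned 1.89 to 148 CPM and a clone of Rpl11+/- reached 148. Smaller rises were found for H4c9, a histone H4 gene (1.65), Pik3r3, a regulatory subunit of PI3-kinase (1.41), Zcwpw1, a histone reader of meiosis (1.27), Ccr4, a chemokine receptor (1.13), Cyb5rl (1.12), Fosl1 (1.16), Zfp296 (1.14) and Col11a2 (1.10). For Fosl1, Zfp296 and Col11a2 the change against the 4 large-subunit genotypes was 0.001, -0.12 and 0.23, with none of the 3 called.

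Among the genes named by rule, the largest falls in RNA were those of Mylk, with 0.79, 1.05 and 0.91 CPM in R98S and 11.7, 6.89 and 6.63 in WT (-3.18, SE 0.56), and Emp1, a tetraspan membrane protein, with 0.65, 0.72 and 1.49 against 7.89, 6.79 and 7.73 (-3.07, SE 0.45). Both were called in RNA (edgeR adjusted p 0.00161 and 0.000302) and both were as low in other clones of the panel, Mylk in Rps15 P131S (0.12 to 0.97 CPM) and Emp1 in both Rps15 mutants (0.63 to 2.16 CPM). Gsn, which severs actin filaments, changed by -1.72 (SE 0.38), from 35.8 to 49.8 CPM to 11.9 to 16.4, Cd180, a toll-like receptor relative of B cells, by -1.52, Sla, an adaptor that dampens antigen receptor signals, by -1.34 and Ptpn22, a lymphoid tyrosine phosphatase, by -0.99. Irs2 (-1.44), Socs1 (-1.305), Ddit4 (-1.13), Kansl1l (-1.02), Prob1 (-1.01) and B3gnt7 (-0.99) were the other genes of this direction. Of these 12, the change against the 4 large-subunit genotypes was called for Mylk, Emp1, Gsn, Cd180, Sla, Kansl1l, Prob1 and Ptpn22, and not for Irs2, Socs1, Ddit4 and B3gnt7. Ddit4, an inhibitor of mTORC1, had 32.6, 32.2 and 31.3 CPM in R98S, 67.0, 64.6 and 78.9 in WT, and 10.7 to 44.1 in the 18 other libraries, where WT and not R98S stood apart.

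**Figure D3:**
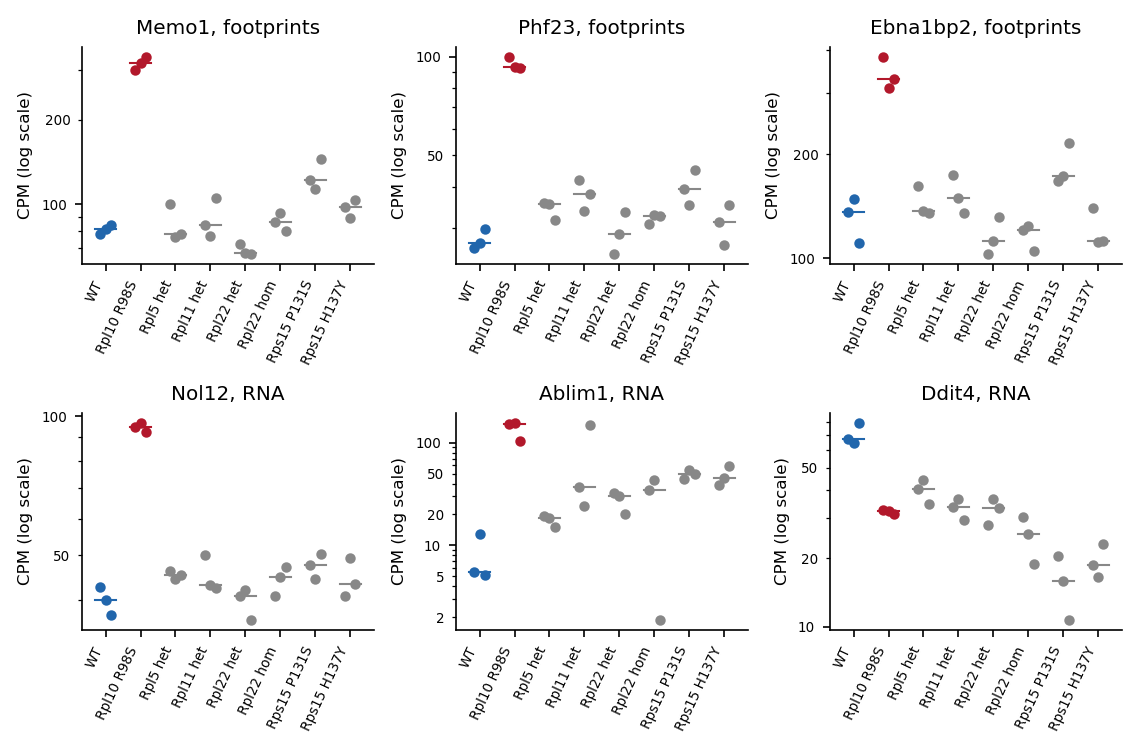
CPM on log scales (y axes) of 3 genes in footprints and 3 in RNA, for the 3 clones of each of the 8 genotypes; short lines are medians, blue is WT, red is Rpl10 R98S and grey the other genotypes. R98S stands above all other libraries for Memo1, Phf23, Ebna1bp2 and Nol12, shares the upper range of Ablim1 with 1 clone of Rpl11+/-, and lies among the other mutants for Ddit4.

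Many mRNAs of large-subunit ribosomal proteins were slightly higher in R98S. All 46 members tested (Rpl10 left out) had a positive RNA change with a median of 0.18, against -0.004 over all genes, and 22 were called higher and 0 lower, where 6.82% of all genes were called higher and 6.03% lower. Summed RNA of the list was 90400 to 93460 CPM in R98S and 79460 to 81590 in WT, with no overlap. Rpl10a rose most, with 2608, 2755 and 2637 CPM in R98S against 1755, 1735 and 1730 in WT (0.62, SE 0.06, edgeR adjusted p 6.71e-07), and no other library exceeded 2142 CPM. Its footprints overlapped between groups (1370, 1412 and 1297 CPM against 1623, 1202 and 1655), and its translational efficiency fell by 0.75 (SE 0.14, edgeR adjusted p 0.00494, called in 4 of 6 fits without 1 clone). Rpl7a and Rpl13a rose by 0.35 and 0.28 in RNA. In footprints 6 of 46 were called higher and 0 lower, where 0.814% and 0.808% of all genes were, among them Rpl19 with 647 to 726 CPM in R98S and 380 to 434 in WT (0.74, edgeR adjusted p 0.0091, called in 5 of 6 fits without 1 clone). Rpl14 was another of the 6 (1.46, edgeR adjusted p 0.0138), but with the copies added its footprint change was 0.36 (edgeR adjusted p 0.504). The number of called large-subunit members was 9 with library totals and 6 to 10 with 1 clone left out. Against the 4 large-subunit genotypes the median RNA difference was 0.005, with 5 members higher and 1 lower where 9.54% and 7.73% of all genes were higher and lower, and 12 were higher and 2 lower in footprints, where 2.43% and 2.75% of all genes were.

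The 33 small-subunit proteins were likewise all positive in RNA (median 0.13), with 7 called higher (6.82% over all genes) and 0 lower; with library totals 2 were called, and with 1 clone left out 1 to 3. Summed small-subunit RNA was 59630 to 62580 CPM in R98S and 54800 to 55560 in WT. Translational efficiency of both lists centred near 0, with medians of 0.08 and -0.04, and 1 large-subunit member was called higher (Rpl14) and 1 lower (Rpl10a). The Rpl14 call was lost with the copies added (0.29, edgeR adjusted p 0.949). Many ribosomal protein mRNAs begin with a run of pyrimidines, the 5′ terminal oligopyrimidine tract, through which mTORC1 controls their translation. An annotated RefSeq start (GRCm38.p6) with C followed by 4 or more pyrimidines was found for 7 of 33 matched large-subunit and 8 of 25 matched small-subunit genes, against 3.01% of 27025 genes. Starts of the 6 members called in RNA with such a tract are shown, with the tract in capitals:
Rpl15 (chr14:18270963-18270986, minus strand): CTTCCTTTCCTCTggcggcagcca
Rps6 (chr4:86857344-86857367, minus strand): CTCTTTTTCgtgacgcctcccagg
Rps18 (chr17:33955642-33955665, minus strand): CTCTCTTCCacaggaggcctacac
Rpl35 (chr2:39005108-39005131, minus strand): CTCTTTCTCTCgaaccaggctgct
Rpl35a (chr16:33056482-33056505, plus strand): CTCTTTCCgccatcttggcgcctg
Rps10 (chr17:27635221-27635244, minus strand): CTTCCTTTCCagcctccgcctcgg
In this order their RNA changes were 0.27, 0.24, 0.24, 0.22, 0.28 and 0.21 and their efficiency changes 0.30, -0.22, 0.62, 0.60, -0.35 and -0.14, and no efficiency change was called. The RNA calls of Rps18, Rpl35 and Rpl35a were lost in every fit without 1 clone, and that of Rps10 was made in 1 of 6.

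Several factors that build and export the 60S subunit rose in RNA. Of 44 such factors 10 were called higher and 0 lower, against 6.82% and 6.03% of all genes, with a median of 0.19 and 42 positive changes; with 1 clone left out, 5 to 9 were called. Noc3l, a nucleolar assembly factor, was at 33.1 to 34.5 CPM in WT and 56.0 to 63.6 in R98S (0.84, SE 0.13, edgeR adjusted p 0.000421), and its footprints changed by 0.17 (edgeR adjusted p 0.757). Its efficiency change of -0.67 was called with the replicate block (edgeR adjusted p 0.047) and not without it (0.213). Nop2, an rRNA methyltransferase, and Bop1, of the PeBoW complex, rose by 0.66 and 0.62, with Nop2 called in 4 of 6 fits without 1 clone. Ebna1bp2 alone was called in footprints. Against the 4 large-subunit genotypes 14 were higher and 1 lower in RNA, where 9.54% and 7.73% of all genes were.

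Some translation factors and proteasome genes rose in RNA, where 6.82% of all genes were called higher and 6.03% lower. Of 55 initiation, elongation and termination factors 13 were called higher and 0 lower, with a median of 0.09. Eif2s2, the beta subunit of eIF2, was at 827, 790.4 and 854 CPM in R98S and at 506, 541 and 542 in WT (0.64, SE 0.12, edgeR adjusted p 0.00208), and the other libraries ended at 598 CPM. Eif2b5, the catalytic subunit of the exchange factor eIF2B, rose by 0.57 in RNA and 0.69 in footprints (called in 2 of 6 fits without 1 clone), and Eif3g by 0.48 and 0.76. Eif1b alone fell, in footprints (-0.61, edgeR adjusted p 0.0428, called in 1 of 6 fits without 1 clone). Of 47 proteasome subunits and assembly factors 11 were higher and 0 lower in RNA (median 0.08) and 5 higher and 0 lower in footprints (median 0.12), where 0.814% and 0.808% of all genes were called. Psmb10, a subunit of the immunoproteasome, rose by 0.66, Psmg1 by 0.56, and Psmd6 and Psmd3 of the regulatory particle by 0.43 and 0.37. With library totals 1 member fell in RNA in each of both lists.

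**Figure D4:**
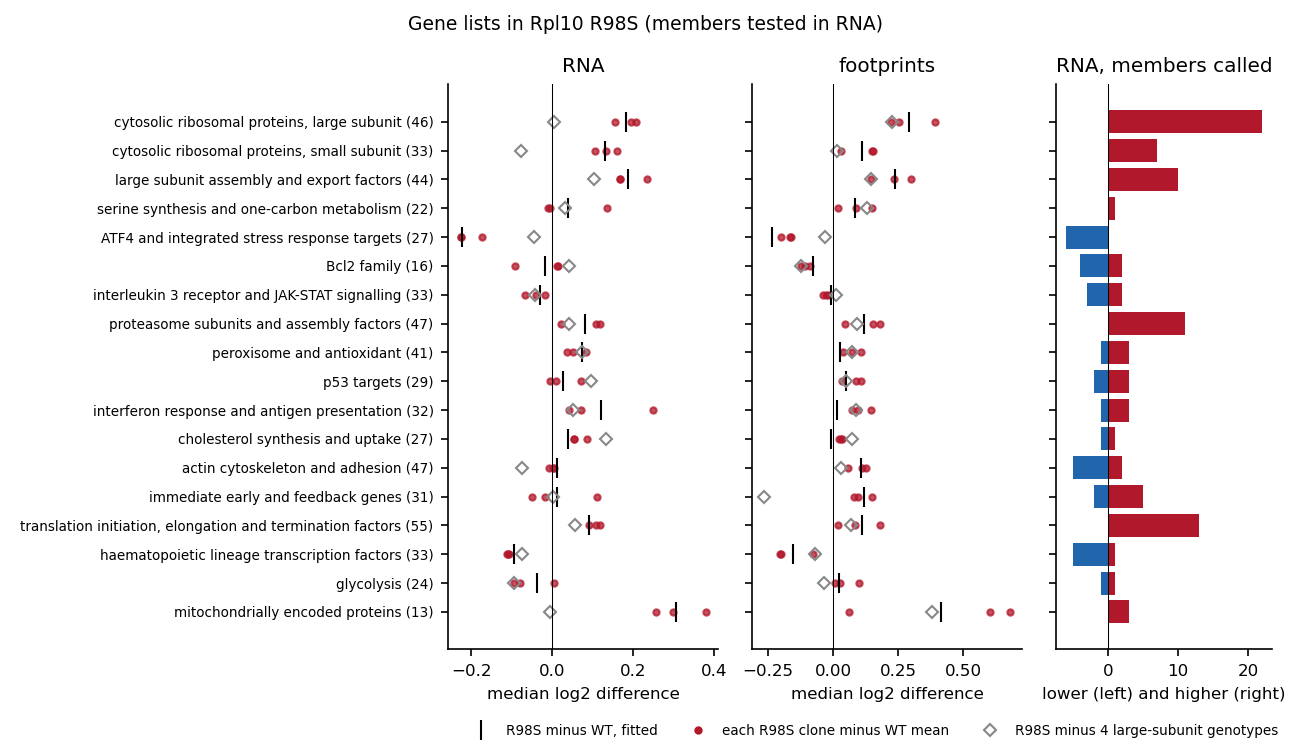
Median log2 difference of 18 gene lists in RNA and footprints (x axes of the left and middle panels) and members called lower (blue) or higher (red) in RNA (right panel), with the number tested in parentheses; black ticks are the fitted R98S minus WT medians, red points each R98S clone minus the WT mean and grey diamonds R98S minus the 4 other large-subunit genotypes. The lists of ribosomal proteins, 60S assembly factors, translation factors and the proteasome have no member called lower in RNA and the ATF4 list none called higher, and the diamond of large-subunit proteins lies at 0 in RNA.

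ATF4 is the transcription factor of the integrated stress response, and 6 of its target genes fell in R98S. Of 27 tested, 6 were called lower and 0 higher in RNA, against 6.03% and 6.82% of all genes, with a median of -0.22 and 5 positive changes, and 0 of 29 were called in footprints (median -0.23). With 1 clone left out 3 to 6 were called. Ddit3, the pro-apoptotic factor CHOP, was at 9.78, 12.2 and 15.9 CPM in R98S and 28.1, 25.2 and 36.0 in WT (-1.25, SE 0.29, edgeR adjusted p 0.00962). Its call held in 4 of 6 fits without 1 clone. Atf5 and Cebpg, both leucine zipper factors, changed by -0.93 (called in 3 of 6 fits without 1 clone) and -0.52. The amino acid carrier subunit Slc3a2 and the amino acid carrier Slc38a2 changed by -0.40 and -0.31. Atf4 itself was not called (0.25 in RNA, edgeR adjusted p 0.285; -0.50 in efficiency, edgeR adjusted p 0.542). Against the 4 large-subunit genotypes the list's median was -0.045, with 1 member higher and 2 lower, Ddit3 (-0.72) and Atf5 (-0.66). Over all genes 9.54% were higher and 7.73% lower in that comparison.

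ATF4 binds composite elements with C/EBP proteins, written here as TGATGNAA. On either strand, the element was in the 250 bases before the RefSeq start of 3.91% of 27025 genes and of 10 of the 26 list members that matched. Of the 7 holders tested in RNA 0 were called (median -0.36, 6 negative), and of 15 members without it 6 were called (median -0.28, 11 negative). A match is a string of letters and not a shown site. Stretches around the element are given for 4 of the 7 holders tested, chosen after their values were seen. Those of Slc7a11, Herpud1 and Pck2 are not shown. Capitals mark the element as it reads on the strand given, which for 3 of the 4 is its reverse complement:
Asns (chr6:7693210-7693248, minus strand): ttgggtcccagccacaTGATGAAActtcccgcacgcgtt
Nupr1 (chr7:126625557-126625596, minus strand): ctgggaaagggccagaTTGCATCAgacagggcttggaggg
Gars (chr6:55037955-55037994, plus strand): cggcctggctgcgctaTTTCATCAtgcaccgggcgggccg
Aars (chr8:111033714-111033753, plus strand): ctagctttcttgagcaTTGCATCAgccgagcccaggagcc
Asns, asparagine synthetase, was at 241, 235 and 230.5 CPM in R98S and 298, 308 and 300.5 in WT. The groups did not overlap, yet the change of -0.36 had an SE of 0.27 and was not called (edgeR adjusted p 0.419). The other 18 libraries held 73.9 to 299.6 CPM. Nupr1, Gars and Aars changed by -0.93, -0.17 and -0.23, none called. The serine pathway, whose mRNAs are also ATF4 targets, gave 1 call: of 22 genes of serine synthesis and one-carbon metabolism the glutamine and serine carrier Slc1a5 was called in RNA (0.30, in 2 of 6 fits without 1 clone), and 0 in footprints or efficiency. The shares called over all genes were 12.9% in RNA, 1.62% in footprints and 0.306% in efficiency. Phgdh, Psat1 and Shmt2 had RNA changes of -0.12, -0.16 and -0.13 and footprint changes of 0.05, 0.13 and -0.06, none called; the count of unadjusted p under 0.05 over all genes was 3629 in RNA and 2209 in footprints.

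Among 33 genes of the interleukin 3 receptor and JAK-STAT pathway 2 rose and 3 fell in RNA, a share near the 12.9% called over all genes. Socs1, the feedback inhibitor of JAK kinases, was at 17.1, 24.0 and 20.1 CPM in R98S and 46.9, 52.0 and 52.5 in WT (-1.305, SE 0.28, edgeR adjusted p 0.00558), and at 8.77 to 35.0 in the 18 other libraries. Stat2 fell in RNA (-0.76) and footprints (-0.57), and Il2rg, the common gamma chain, rose in both (0.47 and 0.51). The footprint call of Stat2 was made in 2 of 6 fits without 1 clone and that of Il2rg in 0. Jak2, the kinase of the interleukin 3 receptor, had footprints of 4.35, 4.49 and 3.13 CPM against 12.02, 12.7 and 11.9 (-1.61, SE 0.36, edgeR adjusted p 0.0273) without a called RNA change (-0.26), although its footprint call was lost in all 6 fits without 1 clone. The Jak2 efficiency change of -1.35 was called with the replicate block (edgeR adjusted p 0.0378) and not without it (0.0574). The receptor chain Csf2rb and the factor Stat5a were not called at either level.

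In the Bcl2 family the pore-forming Bax was at 187, 188 and 166 CPM in R98S and 127, 118 and 115 in WT (0.59, SE 0.11, edgeR adjusted p 0.00169). The near-identical genes Bcl2a1a, Bcl2a1b and Bcl2a1d, which oppose apoptosis and share reads, were each called lower in RNA, but not steadily. Bcl2a1b was at 1.298 to 1.96 CPM against 4.08 to 16.99 (-2.69, SE 0.65, called in 4 of 6 fits without 1 clone). Bcl2a1a RNA overlapped between groups (0.03 to 0.46 CPM against 0.41 to 9.04) and was called in 1 of 6 fits without 1 clone, and Bcl2a1d, under 1 CPM in all 6 libraries, in 2 of 6. Bcl2a1a footprints were at 0 in all 3 R98S libraries and 0.55 to 5.58 CPM in WT, at least 146-fold lower with a floor of 3 counts over the group, though its call was lost in every fit without 1 clone. Bcl2 was not called (-0.21 in RNA, -0.50 in footprints, edgeR adjusted p 0.451 and 0.221).

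Immediate early and feedback genes gave 5 higher and 2 lower of 31 in RNA, where 6.82% and 6.03% of all genes were called. Fosl1, an AP-1 subunit, was at 15.8, 13.7 and 13.0 CPM in R98S and 6.76, 7.0 and 5.28 in WT, and Dusp2 at 22.4, 21.2 and 16.5 against 10.5, 8.21 and 10.8. Both stood apart from WT (1.16 and 1.03) and lay within the range of the other genotypes. Dusp6, a phosphatase of ERK, fell by 0.69 (called in 5 of 6 fits without 1 clone). In footprints Jun rose by 1.12 (called in 3 of 6 fits without 1 clone), and Spred2, an inhibitor of Ras signalling, had lower efficiency (-0.97, edgeR adjusted p 0.0497, called in 0 of 6 fits without 1 clone). Lineage transcription factors gave 1 higher and 5 lower of 33 in RNA and 0 of 32 called in footprints, where 12.9% and 1.62% of all genes were called. Id2 (-0.98), Gfi1b (-0.62), Runx1 (-0.47), Gata1 (-0.42) and Myb (-0.39) fell and Zfpm1 (0.36) rose. Of these, Gata1 was called in 1, Zfpm1 in 3 and Myb in 5 of 6 fits without 1 clone. Runx1 was at 66.2 to 70.9 CPM in R98S and 93.0 to 96.7 in WT in RNA, while its footprints changed by 0.06 (edgeR adjusted p 0.954).

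Of the 13 mitochondrially encoded proteins 3 were called higher in RNA, where 6.82% of all genes were, mt-Cytb (0.66), mt-Nd4l (0.63) and mt-Nd4 (0.48), with a list median of 0.305, and 0 in footprints. Only mt-Cytb was called in each fit without 1 clone. Against the 4 large-subunit genotypes 0 were called in RNA, where 9.54% of all genes were higher and 7.73% lower, and the median was -0.005. Actin and adhesion genes gave 2 higher and 5 lower of 47 in RNA, among them Icam2 (0.51) and Itga4 (-0.48, called in 1 of 6 fits without 1 clone). The remaining lists are set beside the 12.9% of all genes called in RNA. Of 29 p53 targets 3 were higher and 2 lower (17.2% called), with Ccng1 at 0.78 and Apaf1 at -0.30. Interferon and antigen presentation genes gave 3 and 1 of 32 (12.5%) and peroxisome and antioxidant genes 3 and 1 of 41 (9.76%). Cholesterol genes gave 1 and 1 of 27 (7.41%) and glycolysis genes 1 and 1 of 24 (8.33%). B2m, the light chain of class I molecules, rose by 0.48 in RNA, the class I heavy chain H2-K1 by 0.65 in footprints and Bst2, which tethers budding virus, by 0.46 in RNA. The antioxidant enzymes Sod2 and Gpx1 changed by 0.30 and -0.35 in RNA. Without 1 clone, the calls of B2m in RNA, Ccng1 and Gpx1 were made in 4, 3 and 2 of 6 fits, and those of Apaf1 in RNA and H2-K1 in footprints in 0.

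RNA and footprint changes differed with the span of the gene. Over 10860 protein-coding genes with a RefSeq length, the median RNA change ran from 0.07 in the shortest of 5 classes of equal size (median span 4.42 kb, 241 higher and 88 lower) to -0.05 in the longest (101 kb, 90 higher and 206 lower). Each R98S clone showed it: the shortest class lay at 0.05 to 0.08 and the longest at -0.06 to -0.05, and in the longest the WT clones lay at -0.016 to 0.015. Against the same WT, Rpl5+/-, Rpl11+/- and Rpl22-/- had medians of 0.06, 0.07 and 0.08 in the shortest class and -0.05, -0.05 and -0.04 in the longest, and Rps15 P131S 0.15 and -0.12. Rpl22+/- had 0.05 and -0.005 and Rps15 H137Y 0.04 and -0.002. These comparisons share the WT libraries. Efficiency medians lay between -0.025 and 0.009. In footprints the median change ran from 0.06 in the shortest class (40 higher and 14 lower) to -0.08 in the longest (15 higher and 36 lower). The R98S clones lay at 0.04 to 0.08 in the shortest class, within the WT range of -0.09 to 0.07 but for A29, and at -0.11 to -0.07 in the longest, below the WT clones at -0.02 to 0.04.

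**Figure D5:**
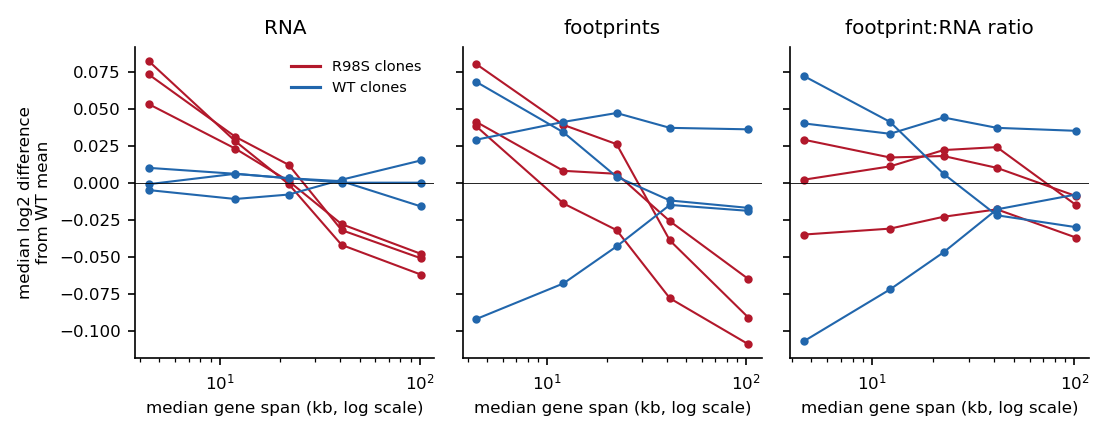
Median log2 difference from the WT mean (y axis) per class of gene span (5 classes of equal size) (x axis, kb, log scale) for RNA, footprints and their ratio; red lines are the 3 R98S clones and blue lines the 3 WT clones. In RNA the red lines fall from between 0.05 and 0.08 to between -0.06 and -0.05 while the blue lines stay near 0, and in footprints the red lines end at -0.11 to -0.07, below the blue lines, while in the shortest class the WT clones range from -0.09 to 0.07.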

How the data were processed

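Per the labels' protocols, lysate of each clone was divided for poly(A) RNA-seq and for RNase I footprinting. The authors deposited 1 table of estimated counts per Ensembl gene, not normalized; the submitters' processing notes name STAR 2.6.1d, Salmon 1.4.0, DESeq2 1.30 and GRCm38, with no roles. Which feature was counted and how multi-mapping reads were handled is not given in the sources used here. A share of 7.3% of RNA and 15.6% of footprint values were not whole; values were rounded and tested with edgeR 4.0.16 (R 4.3.3, limma 3.58.1; TMM scaling; filterByExpr with a minimum of 10 counts and a total of 15; robust quasi-likelihood fit). Each assay was 1 fit of 24 libraries and 8 genotype means, and translational efficiency the assay-by-genotype interaction over 48 libraries and 16 groups. Tests were two-sided. CPM per clone use TMM-scaled library sizes; log2 ratios per clone add a prior count of 2. An exact permutation test of 3 against 3 cannot go below 0.1, so p-values rest on the spread shared over genes and clones of all genotypes.

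RNA and footprint libraries of equal clone number come from 1 lysate per the labels, and over 12074 genes their deviations from the group mean correlated at 0.178 to 0.305 in all 6 clones, against -0.194 to -0.081 between different clones of a group. Replicates are the clones named in the labels, and p-values measure only the spread between these samples.

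Genes named for RNA and footprints were called in the full fit and in all 6 fits without 1 clone, kept their direction, did not overlap between groups, had at least 5 CPM in a group and no pseudogene, Gm or Rik name; of these the 12 largest changes in each direction were taken, and for efficiency the 10 lowest p in each direction among called genes without overlap. Up to 4 called members per list and level, Rpl10, its called neighbours, Memo1, Ablim1 and Gsn were added. Slc3a2, Slc38a2, Myb, Zfpm1, Asns, Nupr1, Gars, Aars and other genes named although not called were chosen after their values were seen. The comparison, the lists (18 pathway and 5 marker lists) and the tests were chosen with earlier results of these data known. The fits were tested on simulated data with known changes: of 2-fold changes 65.7% were recovered in RNA (12814 genes), 30.0% in footprints (16217 genes) and 44.9% in efficiency (12074 genes), and of 4-fold changes 85.7%, 57.3% and 71.6%. Alternatives were other scalings, filters and tests (voom, DESeq2 1.42.0), fits of only R98S and WT libraries, a clone block, leaving out clones and, added after seeing the data, adding -ps entries to the parent gene (714 of 1597). Promoter and start sequences are RefSeq's.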

Additional observations from a re-analysis of the deposited data

How the results depend on the processing

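Fitting only the R98S and WT libraries gave 4216 genes called in RNA, 689 in footprints and 236 in translational efficiency, and limma voom with a variance per genotype gave 4480, 836 and 311. DESeq2's Wald test gave 728 in footprints and 129 in efficiency, and limma voom 396 in footprints; the cause of these differences was not tested. Without 1 clone, counts were 791 to 1087 in RNA, 50 to 128 in footprints and 16 to 34 in efficiency, from fewer samples. The replicate block by clone gave 93 genes in efficiency and kept 35 of 37. The other settings run for these counts stayed within 1.5 times of each count. With library totals, chromosome 6 had median changes of -0.091 in RNA and -0.107 in footprints and chromosome 19 of -0.017 and -0.034. Of 150 calls named in the text by gene and level, 0 changed direction, 116 were called in every setting other than leaving out a clone, and 86 in all 6 fits without 1 clone. Adding pseudogene entries to the parent gene, chosen after seeing the data, gave 1652, 262 and 34 calls. It ended 5 of the named calls, among them those of Rpl14 in footprints and efficiency. Without the filter on low counts, 96 genes were called higher and 159 lower in footprints. A planned description by protein length was not run because no protein table was used here, and gene span took its place. The test on simulated data recovered 65.7% of 2-fold changes in RNA, 30.0% in footprints and 44.9% in efficiency. In efficiency it also called 12 of 11874 genes without a change.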
